A study of Mus musculus with 69 samples.

Results

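The immediate early genes examined were Fosb, Fosl2, Jun, Atf3, Egr4, Klf4, Nr4a2, Nr4a3, Btg2 and Ier5. They were found in the count table by their symbols and are 10 of the 9930 genes read from it. All 10 passed the filter on low counts at both ages, so every one was tested in every comparison.

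Immediate early genes are transcribed soon after a cell is stimulated, by factors that are already present and become active through calcium and kinase signalling. In hippocampal neurons synaptic activity switches them on, and their RNA is short-lived, so that a level at death reflects recent signalling. Most encode transcription factors, which go on to change the transcription of later genes.

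The RNA came from the hippocampus of 69 male mice, 1 library per animal, bred in 2 rounds called cohorts. At P66, postnatal day 66, there were 7 separated Cdh13 knockout, 10 separated wildtype, 7 control knockout and 7 control wildtype animals. At P22 there were 10 separated knockout, 11 separated wildtype, 9 control knockout and 8 control wildtype animals. Cdh13 encodes T-cadherin, a cell adhesion protein of neurons and endothelium, and the study asked at each age how its loss and early stress act alone and together.

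Separated litters spent 3 h of each day between P1 and P14 away from the dam, at random times in the light phase. Control litters were handled and otherwise left alone. P22 animals were killed at weaning, all animals under isoflurane, and the hippocampus was cut from frozen slices. The sources used here do not give the strain, the design of the allele or the hour of death. Separation was applied to whole litters and the labels name none. If littermates are alike, the errors and p-values of separation come out too small.

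Library totals over the held part of the table lay between 11.3 and 16.4 M counts (M, mega), with a median of 13.3 M. The table as held ends on chromosome 8. Immediate early genes that lie beyond that end could not be examined, so the results cover the 10 members and not the whole class. Cdh13 itself was not analysed here, and its level could not serve as a check of the genotype labels. All 6 genes listed as markers of the hippocampal CA fields and all 6 of the dentate gyrus were counted. Slc17a7, a glutamate transporter placed in the CA field list, averaged 3407 ± 363 CPM (counts per 1000000 held counts, SD, n = 69). Other CA field markers varied more relative to their mean, such as Fibcd1 with 332 ± 90.2 CPM. Markers of neighbouring tissue were not uniform. Folr1 of the choroid plexus ran from 0.502 to 59.5 CPM, while Cux1 of the cortex averaged 94.2 ± 10.5 CPM.

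The stretches just upstream of the start sites are shown first, because the members differ in the classical activity motifs there. Windows of 250 bases before the RefSeq start site (GRCm38.p6) were searched on both strands, and all 10 members matched an entry. The core of the cAMP response element, TGACG, where CREB can bind, was present in 7 of the 10 windows and in 17.8% of 32851 RefSeq promoters. The full palindrome TGACGTCA, which holds a core site on each strand, was present only in the Btg2 window, and in 1.55% of all promoters. The site of EGR zinc fingers, GCGNGGGCG, was present in 5 member windows (Fosb, Fosl2, Klf4, Nr4a2 and Btg2) and in 4.70% of all promoters. The AP-1 site TGANTCA and the CArG box of serum response factor were in none of the 10 windows, against 6.75% and 1.47% of all promoters. An E-box, CACGTG, was in the Klf4 window alone, against 6.02% of all promoters.

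Egr4 and Btg2 are printed because their levels were the most closely related pair, and Nr4a2 because its window and that of Nr4a3 held the most core sites, 4 each. All 3 lie on the minus strand, at chr6:85513590-85513839, chr1:134079156-134079405 and chr2:57124004-57124253. They are written 5′ to 3′ towards the start site, with the core sites, or for Btg2 the palindrome, in capitals.
Egr4: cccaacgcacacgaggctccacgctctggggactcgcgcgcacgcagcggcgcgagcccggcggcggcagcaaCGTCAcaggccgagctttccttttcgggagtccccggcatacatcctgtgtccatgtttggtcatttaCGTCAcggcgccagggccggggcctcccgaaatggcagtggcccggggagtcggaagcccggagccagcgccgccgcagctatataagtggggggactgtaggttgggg
Btg2: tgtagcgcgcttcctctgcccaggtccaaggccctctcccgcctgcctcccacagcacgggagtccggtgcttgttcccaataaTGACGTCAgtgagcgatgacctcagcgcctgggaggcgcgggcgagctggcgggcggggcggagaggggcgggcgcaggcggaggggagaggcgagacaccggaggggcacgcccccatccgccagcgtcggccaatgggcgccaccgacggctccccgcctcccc
Nr4a2: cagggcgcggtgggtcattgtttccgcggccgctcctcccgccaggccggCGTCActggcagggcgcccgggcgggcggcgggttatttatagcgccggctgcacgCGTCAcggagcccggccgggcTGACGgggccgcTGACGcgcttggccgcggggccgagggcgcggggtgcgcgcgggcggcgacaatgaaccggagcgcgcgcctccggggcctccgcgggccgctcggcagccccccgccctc
The Egr4 core sites began 177 and 109 bases before the start site. The Btg2 palindrome began 166 bases before it. The Nr4a2 core sites began 200, 144, 123 and 111 bases before it, and its EGR site 74 bases before it. A match is a string of letters, and no binding was measured.

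Levels differed widely between the members. Per kilobase of exon, Jun was the highest, with a mean of 73.6 CPM per kb over the 69 animals, above 90.9% of the genes ranked. Nr4a3 with 35.8, Ier5 with 30.9, Nr4a2 with 26.0, Egr4 with 22.9, Btg2 with 19.9 and Fosl2 with 12.2 CPM per kb followed. Klf4 with 3.22, Fosb with 2.75 and Atf3 with 1.04 CPM per kb stood above 24.95%, 22.97% and 13% of genes. Atf3 rested on 11 to 61 counts per library, so its changes were measured with the least precision of the 10.

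Animals of the same group varied more in these genes than in the median gene. After group and cohort were accounted for, the biological coefficient of variation was 28.6% for Atf3, 28.1% for Fosb, 24.02% for Egr4, 21.9% for Nr4a2 and 20.8% for Btg2. It was 17.0% for Klf4, 14.6% for Fosl2, 14.3% for Ier5, 12.9% for Nr4a3 and 10.9% for Jun, against a median of 9.40% over 7131 genes. Every member therefore lay above the median gene. Genes with few counts vary more, and on the trend fitted over genes of the same level the value was 20.53% for Atf3, 15.28% for Fosb, 10.81% for Egr4, 10.44% for Btg2 and 9.51% for Nr4a2. Klf4, at 16.98% against 16.83% on the trend, varied about as much as genes of its level, and the other 9 members lay further above it.

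**Figure D1:**
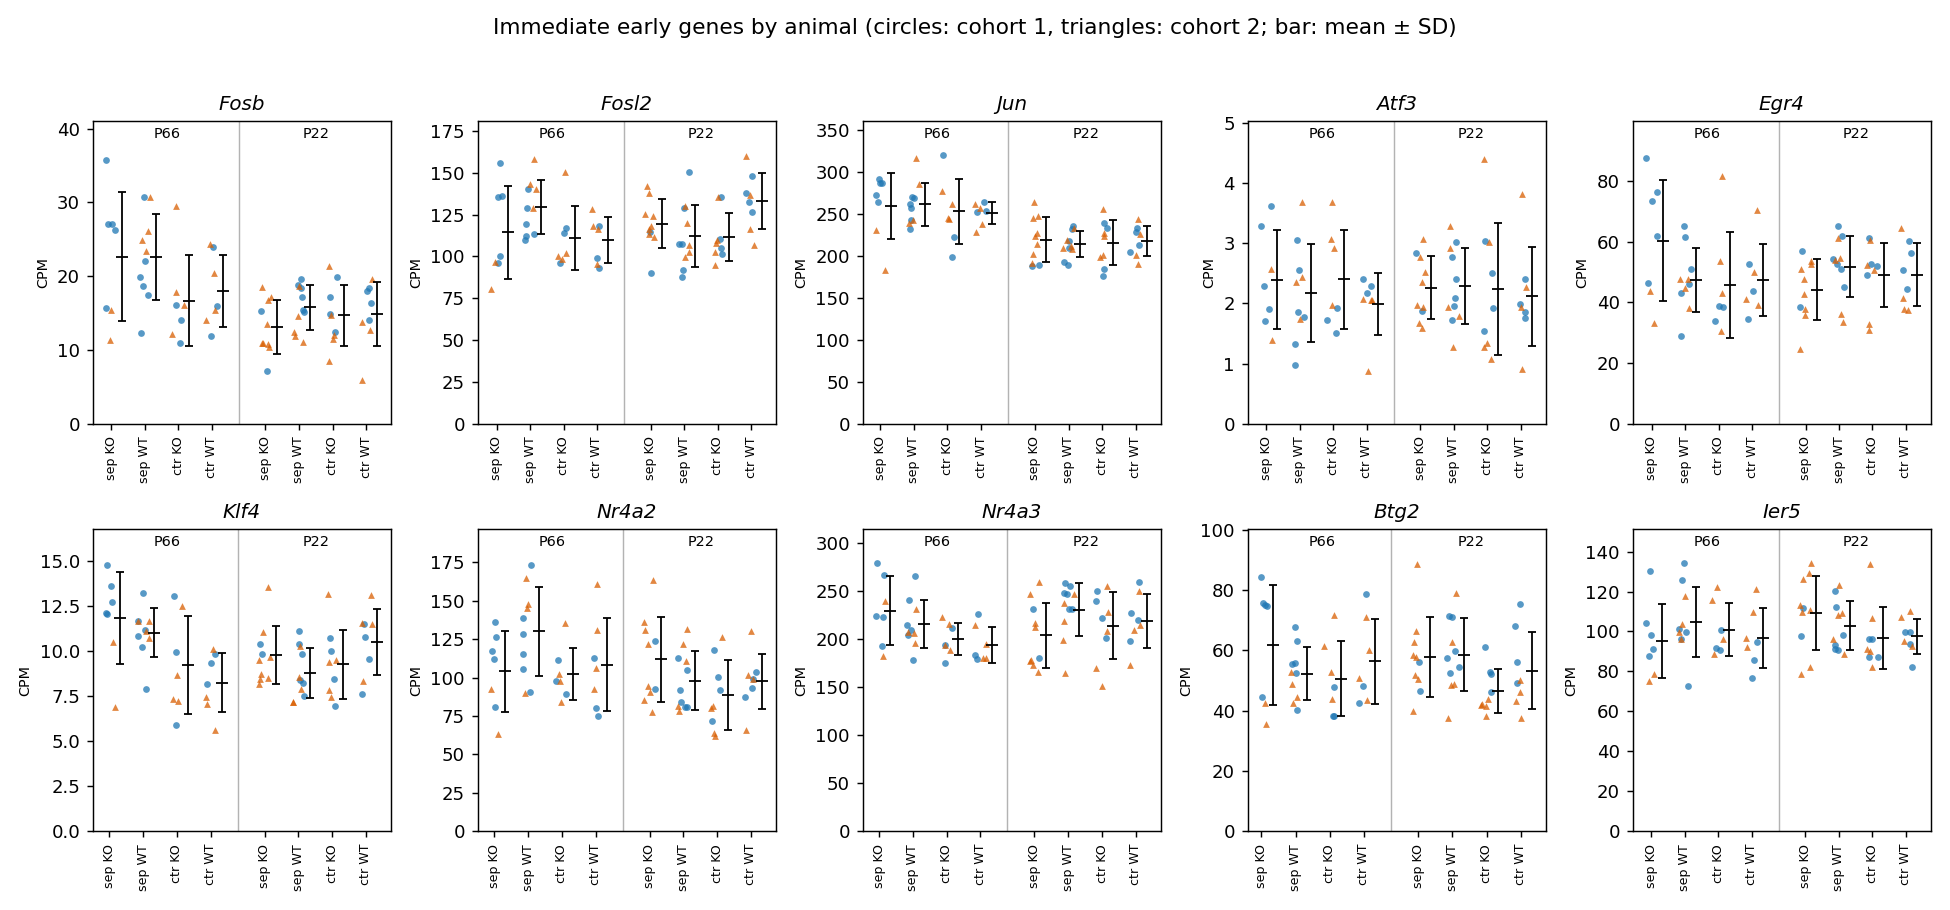
CPM of each gene in every animal (vertical axis, from 0), in 8 groups of separated (sep) or control (ctr) knockout (KO) or wildtype (WT) mice, P66 left and P22 right. Circles are cohort 1, triangles cohort 2, and bars the mean ± SD; the groups overlap in every panel, and Fosb reaches 35.8 CPM at P66 but only 21.3 CPM at P22.

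The AP-1 family members dimerise with each other, and Jun is the partner most of them share. Jun (chr4:95049034-95052222, minus strand) had its highest group mean, 262 ± 25.7 CPM (SD, n = 10), in separated wildtype animals at P66 and its lowest, 214 ± 15.2 CPM (n = 11), in separated wildtype animals at P22. Its exon overlaps the antisense gene Junos, and since the strand setting of the counting is not given, reads of the pair cannot be told apart. Fosb (chr7:19302696-19310051, minus strand), whose truncated protein builds up with repeated activity, had its highest group mean in separated knockout animals at P66, 22.7 ± 8.70 CPM (n = 7), and its lowest in separated knockout animals at P22, 13.1 ± 3.68 CPM (n = 10). Fosl2 (chr5:32135801-32157842, plus strand), a slower FOS relative, averaged most in control wildtype animals at P22, 133 ± 16.9 CPM (n = 8), and least in control wildtype animals at P66, 109.9 ± 13.6 CPM (n = 7). Atf3 (chr1:191170296-191218039, minus strand), a stress-induced repressor, kept group means between 2.40 ± 0.820 CPM in control knockout and 1.99 ± 0.509 CPM in control wildtype animals at P66 (n = 7 each).

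The zinc finger factors were Egr4 and Klf4. Egr4 (chr6:85511121-85513589, minus strand), an activity-induced member of the EGR family, had group means between 60.4 ± 19.9 CPM (n = 7) in separated knockout animals at P66 and 44.2 ± 10.1 CPM (n = 10) in separated knockout animals at P22. Klf4 (chr4:55527143-55532466, minus strand), which restrains proliferation and neurite growth, had group means between 11.8 ± 2.56 CPM in separated knockout and 8.24 ± 1.64 CPM in control wildtype animals at P66 (n = 7 each). Nr4a2 (chr2:57106830-57124003, minus strand) and Nr4a3 (chr4:48045153-48086447, plus strand) are nuclear receptors that act without a known circulating ligand. Group means of Nr4a2 lay between 129.99 ± 29.2 CPM (n = 10) in separated wildtype animals at P66 and 88.4 ± 22.8 CPM (n = 9) in control knockout animals at P22. Those of Nr4a3 lay between 231 ± 27.8 CPM (n = 11) in separated wildtype animals at P22 and 194 ± 18.9 CPM (n = 7) in control wildtype animals at P66.

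Btg2 and Ier5 are not DNA-binding factors. Btg2 (chr1:134075170-134079120, minus strand), which slows the cell cycle and recruits RNA deadenylation, had group means between 61.8 ± 19.9 CPM (n = 7) in separated knockout animals at P66 and 46.6 ± 7.29 CPM (n = 9) in control knockout animals at P22. Ier5 (chr1:155096361-155099636, minus strand), a cofactor of heat shock factor, had group means between 109 ± 18.6 CPM (n = 10) in separated knockout animals at P22 and 95.2 ± 18.5 CPM (n = 7) in separated knockout animals at P66. For all 10 genes the highest and the lowest group overlapped in the range of their animals.

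Age was the factor that moved members past the threshold. In P66 against P22 animals 2 of the 10 genes were called by edgeR's quasi-likelihood test (Benjamini-Hochberg adjusted p under 0.05 over all genes), Jun and Fosb, both higher at P66. Of all 7131 genes 52% were called by age and 26.2% were higher, so the members' share lay below the background. In P66 animals Jun had 183 CPM at its lowest, 257 CPM at the median and 320.3 CPM at its highest, against 176, 216 and 264 CPM in P22 animals. The ranges overlapped, but 28 of 31 P66 animals were above the median of the P22 animals of their own genotype and rearing. The log2 change of Jun was 0.24 ± 0.04 (SE, adjusted p = 2.68e-07).

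Fosb was lower in level and rose more. P66 animals had 10.96, 18.7 and 35.8 CPM as the lowest, median and highest value, and P22 animals 5.96, 14.8 and 21.3 CPM. Its log2 change was 0.44 ± 0.10 (adjusted p = 0.000219), and 24 of 31 P66 animals were above the median of their P22 counterparts. In cohort 1 alone it was 0.32 with an adjusted p of 0.0588. Both genes were called in each of the 69 fits that left out 1 animal.

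The other 8 members were not called by age. Nr4a2 was closest, with 113 ± 27.9 CPM at P66 (n = 31) and 99.3 ± 22.95 CPM at P22 (n = 38), a log2 change of 0.17 ± 0.08 and an adjusted p of 0.0576. It passed with a stricter filter, under which fewer genes were tested (adjusted p = 0.0426). The remaining 7 had log2 changes between −0.06 for Nr4a3 and 0.05 for Klf4. Over the 10 members the median log2 change was 0.02.

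Genes around the members moved with age in both directions. Of 19 other activity-regulated genes 3 rose and 8 fell at P66. The strongest falls were those of the kinase Plk3, with a log2 change of −0.51 ± 0.05, and of Nptx2, a secreted pentraxin of excitatory synapses, with −0.47 ± 0.06. Gpr3, a constitutively active receptor, fell by 0.35 on the log2 scale, while the repressor Bhlhe40 rose by 0.24. Of 14 regulators upstream of these genes 6 rose and 3 fell, led by a fall of 0.26 for Elk4, a partner of serum response factor, and by a rise of 0.14 for the CREB coactivator Crtc2, while Creb1 itself had a log2 change of 0.01 ± 0.05 (adjusted p = 0.854). Endothelial markers also moved with age, with 1 of 11 called higher and 6 lower. Called in either direction were 11 of 19 activity-regulated genes, 9 of 14 regulators and 7 of 11 endothelial markers, against 52% of all genes, so that the number called does not set these lists apart. The summed level of the endothelial markers ran from 668 to 875 CPM in P66 and from 790 to 986 CPM in P22 animals. In bulk tissue fewer cells of a type and less RNA per cell cannot be told apart, and the part of cell composition in the age changes was not tested.

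Within single groups the age comparison called 4 members in separated wildtype animals (Fosb, Jun, Klf4 and Nr4a2, all higher at P66; 30.8% of all genes were called, 14.5% higher), 2 in separated knockout animals (Fosb and Jun, both higher; 19.2% called, 8.16% higher) and 1 in control knockout animals (Jun, higher; 28.1% called, 13.3% higher). In control wildtype animals 0 were called by edgeR, where 18.9% of all genes were, and 3 had an unadjusted p under 0.05, against 30.4% of all genes. The difference between the age changes of separated and control animals was not called for any of the 10, against 0.0421% of all genes, and 2 had an unadjusted p under 0.05, against 6.73% of all genes. Klf4 had the largest such difference, 0.45 ± 0.14 on the log2 scale (p = 0.00131, adjusted p = 0.282). In separated animals Klf4 averaged 11.4 ± 1.92 CPM at P66 (n = 17) and 9.27 ± 1.55 CPM at P22 (n = 21), and in control animals 8.74 ± 2.23 CPM at P66 (n = 14) and 9.86 ± 1.94 CPM at P22 (n = 17). The difference between the age changes of knockout and wildtype animals was called by edgeR for 0 of the 10 members and 0% of all genes, and 0 members had an unadjusted p under 0.05, against 2.15% of all genes.

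**Figure D2:**
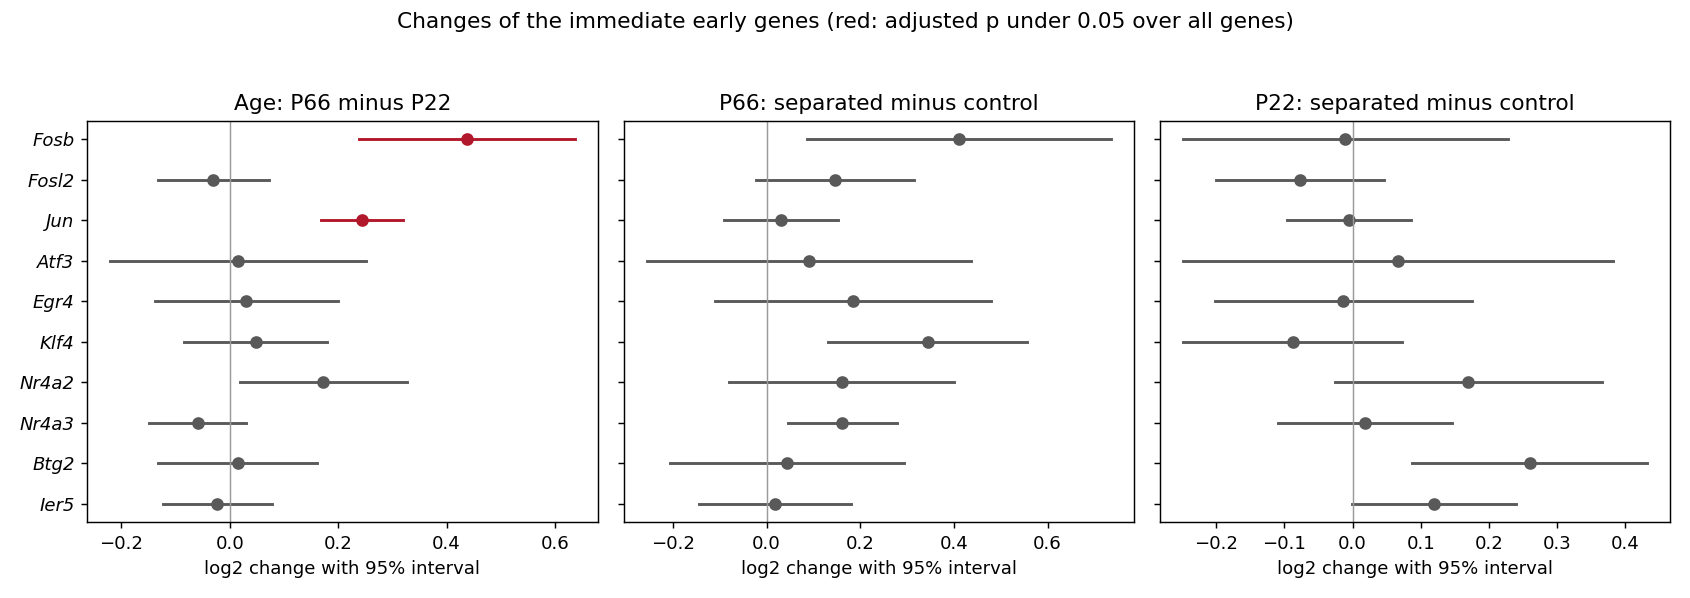
Log2 change of each gene (horizontal axis, point) with its 95% interval (line), for P66 minus P22 and for separated minus control at P66 and at P22; the scales of the 3 panels differ. Only Jun and Fosb by age are past the threshold, and at P66 the estimates of all 10 genes lie right of 0 by between 0.02 and 0.41.

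At P66, maternal separation moved no member past the threshold, against 0.371% of all genes (26 of 7001). That count was 98 by DESeq2 and moved with single animals, to 3 without the control wildtype animal 6 of cohort 1 and to 75 without the separated knockout animal 84 of cohort 2. All 10 point estimates were above 0, as were 48.3% of all genes, with a median of 0.15 over the members and of 0.00 over all genes. The members varied together from animal to animal, as described below, so their 10 signs do not count as 10 separate observations. The estimates of Btg2, Ier5 and Jun were 0.04, 0.02 and 0.03 and turned below 0 when single animals were left out. By DESeq2 0 members were called as well, and Klf4, Nr4a3 and Fosb had an unadjusted p under 0.05 in edgeR, where 12.2% of all genes did.

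Klf4 had the smallest p-value for separation at P66, while the largest estimate was that of Fosb. Separated P66 animals had 6.90 CPM at the lowest, 11.7 CPM at the median and 14.8 CPM at the highest, against 5.63, 8.42 and 13.1 CPM in control P66 animals. The ranges overlapped, and 15 of 17 separated animals were above the median of the controls of their genotype. The log2 change was 0.34 ± 0.11 (p = 0.00351, adjusted p = 0.152). It passed in 1 of 31 fits that left out 1 animal, without the separated knockout animal 84 of cohort 2 (0.40, adjusted p = 0.0497).

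Fosb and Nr4a3 were next. Fosb had 11.4, 23.4 and 35.8 CPM as the lowest, median and highest value in separated animals, against 10.96, 16.04 and 29.5 CPM in control animals, a log2 change of 0.41 ± 0.17 (adjusted p = 0.278, higher in 13 of 17). Nr4a3 had 179, 215 and 279.7 CPM in separated animals, against 175, 194 and 226 CPM in control animals, a log2 change of 0.16 ± 0.06 (adjusted p = 0.228, higher in 14 of 17). Of the other 19 activity-regulated genes 0 were called by edgeR and 2 had an unadjusted p under 0.05, and their median log2 change was 0.00. Of the 14 upstream regulators 0 were called and 2 had an unadjusted p under 0.05. Among 8 circadian clock genes, Ciart and Dbp fell with separation at P66, by 0.46 and 0.51 on the log2 scale, and Arntl rose by 0.16; the part of time of day in the members' levels was not tested.

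The separation estimates at P66 split by cohort. In cohort 1, with 11 separated and 6 control animals, all 10 were above 0, up to 0.58 for Fosb and 0.53 for Egr4. In cohort 2, with 6 separated and 8 control animals, 7 were below 0 and Klf4 (0.27), Nr4a3 (0.08) and Fosb (0.01) were above. Egr4 in cohort 1 had 29.05, 61.5 and 87.5 CPM as the lowest, median and highest value in separated animals, against 33.96, 38.7 and 52.5 CPM in control animals. In cohort 2 Egr4 had 33.2, 44.3 and 47.8 CPM in separated animals, against 30.6, 46.6 and 81.8 CPM in control animals. The groups thus overlapped in both cohorts. In cohort 1 the separated median was the higher one, and the lowest and the highest animal were both separated. In cohort 2 the medians lay closer, and the lowest and the highest animal were both controls.

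Btg2 was split by cohort as well. In cohort 1 it had 40.1, 63.04 and 84.2 CPM in separated P66 animals, against 38.1, 45.1 and 78.6 CPM in control P66 animals. In cohort 2 it had 35.6, 43.5 and 52.7 CPM in separated animals, against 43.4, 56.5 and 71.7 CPM in control animals. The separated median was the higher one in cohort 1 and the lower one in cohort 2. The difference between the cohorts' log2 changes was tested in 1 fit of both cohorts, in which the genotype effects are shared, so that it need not equal the gap between the fits of each cohort alone. There cohort 2 minus cohort 1 was −0.69 ± 0.22 for Btg2 (p = 0.00404), −0.73 ± 0.27 for Egr4 (p = 0.0106) and −0.37 ± 0.15 for Ier5 (p = 0.0196), each with an adjusted p of 0.999 over all genes. By edgeR 0 members and 0% of all genes were called for this difference, and 3.03% of all genes had an unadjusted p under 0.05. The test was added after the data were seen, and Egr4 and Btg2 varied together, so their differences are not separate observations. The separated knockout group at P66 held 5 animals of cohort 1 and 2 of cohort 2, while the 2 control groups held 3 and 4.

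**Figure D3:**
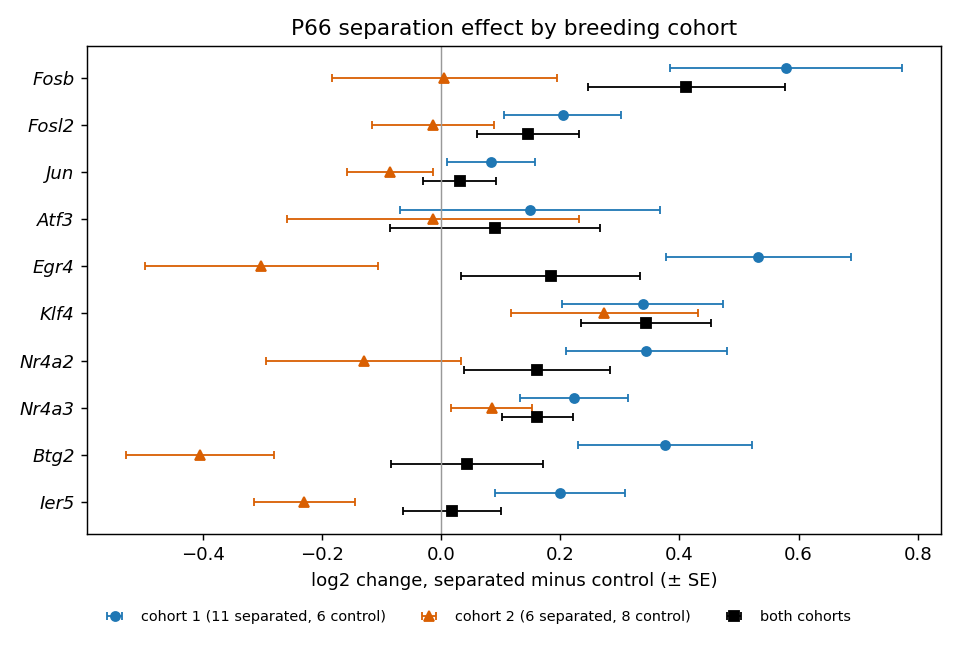
Log2 change at P66, separated minus control, with its SE (horizontal axis), for each gene in cohort 1 alone (circles), cohort 2 alone (triangles) and both cohorts together (squares). Circles lie right of 0 for all 10 genes, while triangles lie left of 0 for 7, with Btg2 at −0.40 and Egr4 at −0.30.

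At P22 separation called 0 of the 10 members by edgeR and 0% of all genes. Btg2 was the 1 member with an unadjusted p under 0.05, against 3.08% of all genes. Its separated animals had 37.5, 57.4 and 88.5 CPM as the lowest, median and highest value, against 37.5, 46.2 and 75.5 CPM in control animals. The groups overlapped over most of their range, and 17 of 21 separated animals were above their controls' median. The log2 change was 0.26 ± 0.09 (p = 0.00542, adjusted p = 0.999), made up of −0.04 in cohort 1 and 0.42 in cohort 2. In the edgeR fit of both cohorts with a term for their difference, cohort 2 minus cohort 1 was 0.40 ± 0.17 (p = 0.0257, adjusted p = 0.999). This term too was added after the data were seen. In cohort 2 Btg2 thus had a positive estimate at P22 and a negative one at P66, and its age change differed between separated and control animals by −0.83 in cohort 2, by 0.41 in cohort 1 and by −0.22 ± 0.15 over both (adjusted p = 0.908).

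Genotype called no member at either age. At P22 the log2 changes of knockout against wildtype lay between −0.09 and 0.02 (0 of 10 called by edgeR, 0% of all genes, 0 with an unadjusted p under 0.05 against 4.11% of all genes). At P66 they lay between −0.20 for Nr4a2 and 0.22 for Atf3 (0 of 10 called, against 0.0571% of all genes, 0 with an unadjusted p under 0.05 against 8.36%). Nr4a2 averaged 104 ± 26.3 CPM in separated knockout (n = 7), 129.99 ± 29.2 CPM in separated wildtype (n = 10), 103 ± 16.9 CPM in control knockout (n = 7) and 108 ± 30.1 CPM in control wildtype animals (n = 7). Its change of −0.20 ± 0.12 (adjusted p = 0.672) was 0.01 in cohort 1 and −0.52 in cohort 2.

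The interaction of genotype and separation called 0 members by edgeR at either age, as it did 0% of all genes. At P22 Fosl2 (0.34 ± 0.13, p = 0.0101) and Klf4 (0.34 ± 0.17, p = 0.0478) had an unadjusted p under 0.05, against 8.47% of all genes, both with an adjusted p of 0.584. Fosl2 at P22 averaged 119 ± 14.6 CPM in separated knockout (n = 10), 112 ± 18.6 CPM in separated wildtype (n = 11), 112 ± 14.5 CPM in control knockout (n = 9) and 133 ± 16.9 CPM in control wildtype animals (n = 8). The control wildtype group was the one that stood higher. At P66 0 members had an unadjusted p under 0.05, against 4.53% of all genes, and the largest interactions were those of Egr4 (0.39 ± 0.28) and Btg2 (0.37 ± 0.24, both adjusted p = 0.794).

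The members varied together from animal to animal. With group and cohort taken out of log2 CPM, 44 of the 45 pairs correlated positively over the 69 animals, with a median Pearson r of 0.361. Of these 33 had a permutation p under 0.05 after Benjamini-Hochberg adjustment over the 45 pairs (32 by Spearman's rho), all positive, and all 33 were positive in each cohort and at each age. The share of pairs called was not computed for other genes. The share of genes outside the members that reached a member's median r with the others ran from 0.112% for Fosb to 18.3% for Nr4a3. Counts that share library totals can correlate. No member was related to the library total after adjustment over 120 relations (r from −0.09 to 0.16). CPM is already divided by that total, so these values cannot show whether shared scaling adds to the correlations, which was not tested.

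The closest pairs were formed by Egr4, Btg2 and Fosb. Egr4 and Btg2 had r = 0.763 and rho = 0.725 (permutation p = 1e-05, the smallest possible, adjusted p = 5.625e-05), with 0.732 without the 2 animals farthest in Egr4. Within cohort 1 it was 0.805, within cohort 2 0.745, at P66 0.901 and at P22 0.577. Fosb and Egr4 had r = 0.754 and rho = 0.729 with the same p-values, 0.748 without the 2 farthest animals, 0.898 at P66 and 0.583 at P22. Fosb with Fosl2 (0.690), Fosb with Btg2 (0.678) and Fosl2 with Nr4a2 (0.668) followed.

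Other pairs were looser, and 12 of the 45 were not called. Jun and Klf4 had r = 0.337 (permutation adjusted p = 0.00778), but 0.168 without the 2 animals farthest in Jun, so that relation rested in part on those animals. Their r was 0.61 at P66 and 0.015 at P22. Nr4a3 was related to Atf3 (0.533), Egr4 (0.440), Fosb (0.370) and Btg2 (0.331), but its r with its relative Nr4a2 was 0.060 and with Ier5 −0.062, the one pair below 0. Jun was also related to Fosl2 (0.393), Fosb (0.345), Btg2 (0.277) and Egr4 (0.266), but had r = 0.020 with Nr4a2. Of the 33 called pairs 26 had the higher r at P66 and 7 the higher r at P22, and the median over all 45 pairs was 0.443 at P66 and 0.281 at P22; this difference was not tested.

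**Figure D4:**
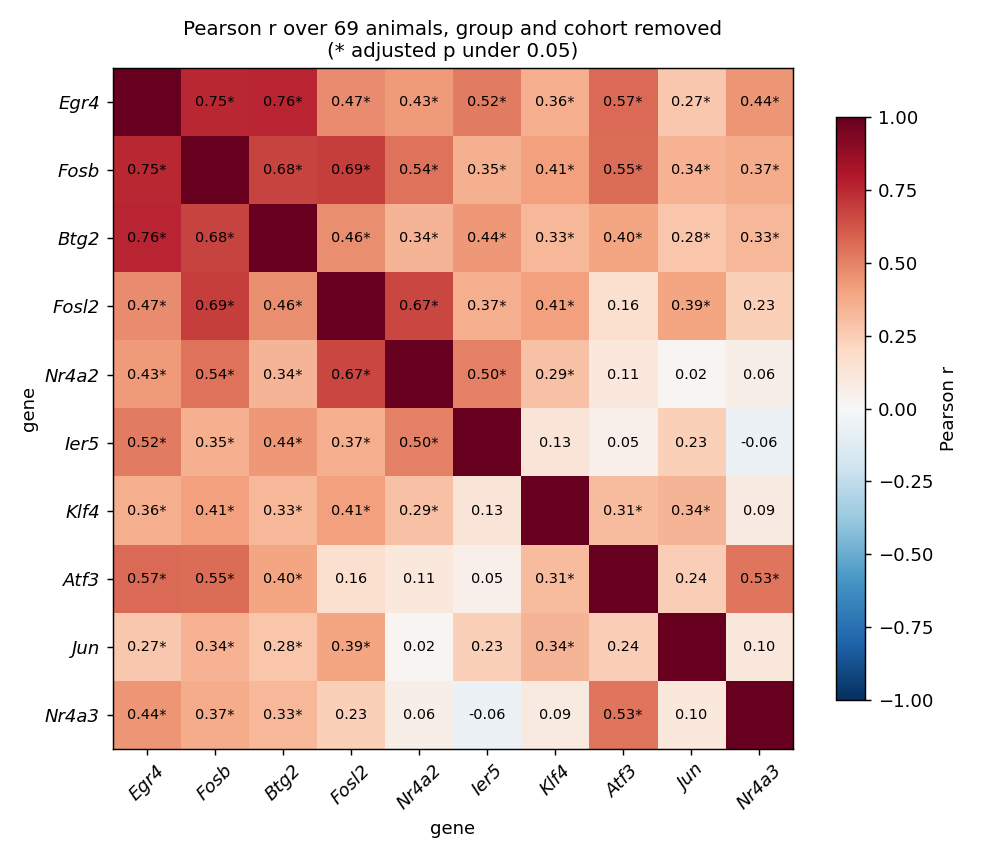
Pearson r between each pair of genes over 69 animals, after group and cohort were taken out of log2 CPM, as colour and number; a star marks an adjusted permutation p under 0.05. Egr4, Fosb and Btg2 form the darkest block, at 0.68 to 0.76, and Nr4a3 with Ier5 is the one pair below 0.

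Some animals were high or low in most members at once. Of the 69 animals 7 were above their group's median in at least 9 of the 10 genes, and 12 in at most 1. In groups of odd size the middle animal is never above the median, which leaves fewer animals above it. Sets of other genes were not counted in this way. Control knockout animal 76 of cohort 2 at P66 was the highest of its group in 7 genes, among them Egr4 with 81.8 CPM. Separated knockout animal 58 of cohort 1 at P66 was highest in 7 as well, with 87.5 CPM of Egr4 and 35.8 CPM of Fosb, and so was control wildtype animal 97 of cohort 2 at P22. Separated knockout animal 53 of cohort 2 at P66 was the lowest of its group in 7 genes, with 33.2 CPM of Egr4 and 11.4 CPM of Fosb.

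**Figure D5:**
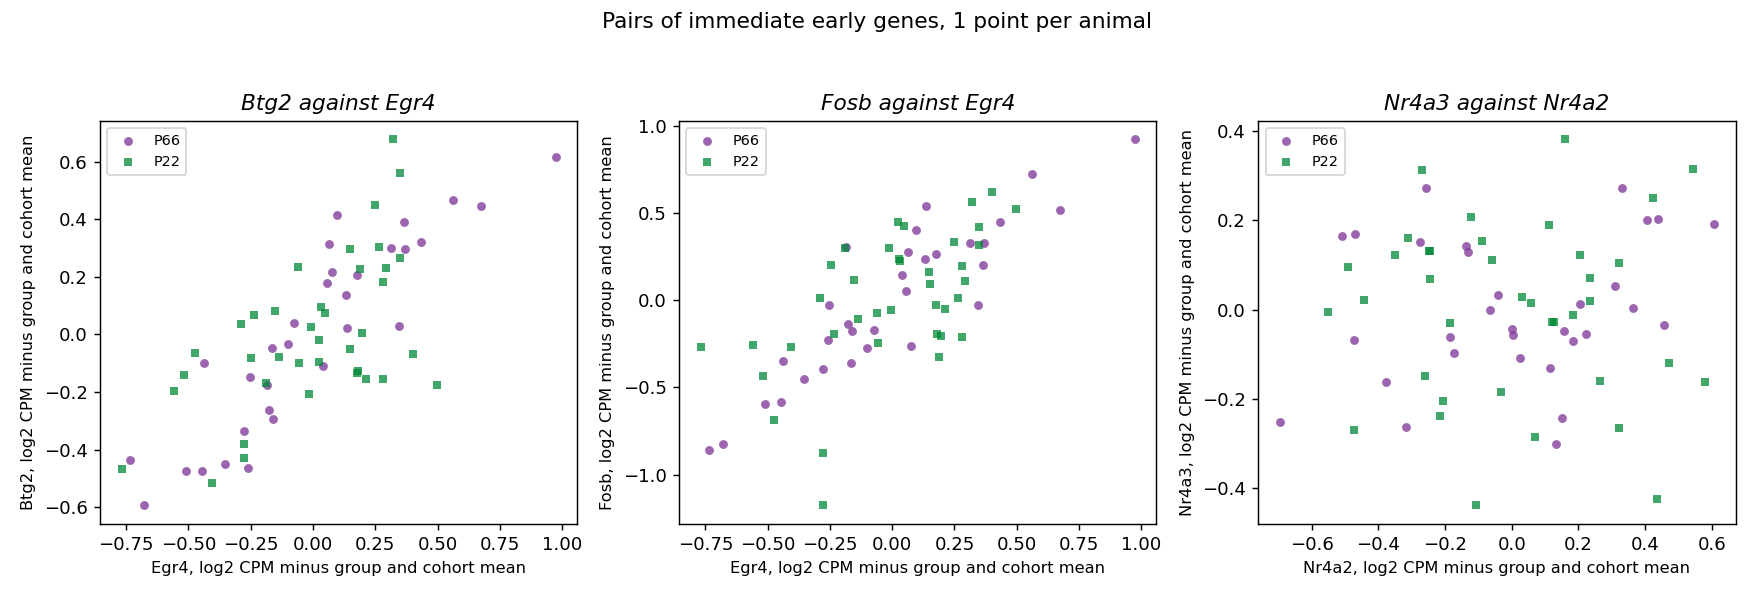
Log2 CPM of Btg2 and Fosb against Egr4, and of Nr4a3 against Nr4a2, with group and cohort taken out, 1 point per animal (circles P66, squares P22). The first pairs rise along a line, more closely at P66 (r = 0.901 and 0.898) than at P22 (0.577 and 0.583), while the last scatters without one (r = 0.060 over all animals).

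Set against the mean of the 19 other activity-regulated genes, 6 members correlated positively (adjusted over 120 relations of members with lists and the library total). They were Egr4 (r = 0.837, rho = 0.852), Btg2 (0.718, 0.676), Ier5 (0.635, 0.548), Fosb (0.617, 0.621), Atf3 (0.461, 0.495) and Fosl2 (0.330, 0.283, for which rho was not called). Members also varied with markers of region and cell type. Ier5 followed the 4 cortex markers (0.756), with which Nr4a2 correlated positively (0.416) and Nr4a3 negatively (−0.451). Jun and Atf3 followed the 6 dentate gyrus markers, Jun with 0.440 (0.645 at P66 and 0.160 at P22) and Atf3 with 0.331 (0.396 at P66 and 0.267 at P22). Jun ran against the choroid plexus (−0.398), as did Ier5 (−0.401). Nr4a3 ran against the endothelium (−0.438), and Nr4a2 rose with the thalamus (0.412). The part of these tissues in the members' levels was not tested. The clock genes, microglia, striatum, CA fields and upstream regulators gave 0 relations past the adjusted threshold by Pearson's r. Clock genes can move in opposite directions, as Arntl did against Dbp and Ciart with separation at P66. Such changes offset each other in a mean, so the clock value cannot show whether members followed single clock genes.

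The genes outside the members with the most similar pattern differed from one member to the next. Among 7121 genes Jun was closest to C1ql2 (r = 0.756), a synaptic protein of dentate granule cells, and Lzts3 (0.696). Ier5 was closest to its own relative Ier5l (0.760) and to Vopp1 (0.751). Btg2 was closest to Cyr61 (0.724) and Apold1 (0.657), of which Apold1 is best known from endothelium. Nr4a3 was closest to Ccnd2 (0.678) and to Ptgs2 (0.661), the activity-induced cyclooxygenase. Egr4 was closest to Phf13 (0.670) and Stk40 (0.653), and Fosb to Kctd7 (0.662) and Gcc1 (0.637). Nr4a2 was closest to the relaxin receptor Rxfp1 (0.664) and the glutamate receptor Grm8 (0.659), and Atf3 to Spry1 (0.608) and Rhoh (0.578). Fosl2 was closest to Gatsl2 (0.583) and Kcnc4 (0.577), and Klf4 to Cntfr (0.488) and P2ry14 (0.451). The median r of Fosb with the other members, 0.545, was reached by 0.112% of the other genes, and that of Egr4, 0.473, by 0.548%. For Jun, at 0.266, and Nr4a3, at 0.234, 16.8% and 18.3% of other genes reached the members' median.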

How the data were processed

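RNA of the hippocampus of 69 mice was sequenced, and the authors deposited raw counts of reads per gene as 1 table. The submitters' processing notes name limma 3.34.9, edgeR, cutadapt 1.16 and FastQC 0.11.4. Which aligner, counter, strand setting and build were used was not given in the sources used here. Gene positions are those of the table, and 99.5% of its identifiers were found in GENCODE M21 (GRCm38). No columns were left unmapped, and 1 incomplete record was left out.

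Counts were filtered with filterByExpr (minimum count 10, minimum total 15), which kept 7036 genes at P22, 7001 at P66 and 7131 over both, and were scaled by TMM. In R 4.3.3, edgeR 4.0.16 fitted each age with group and cohort (quasi-likelihood), and age in 1 fit of all 69 libraries; p-values were Benjamini-Hochberg adjusted over all genes, with a threshold of 0.05. Changes are on the log2 scale with SE. CPM uses TMM-scaled totals of the held part; levels per kb divide by exon length. Correlations used log2 CPM (prior count 2) less group and cohort means, with 100000 permutations. Fits were tested on simulated data, with changes set in genes drawn from all those tested. Of 1.2-fold changes 73.5% were recovered for separation at P22, 74% for separation at P66 and 89.7% for age. The members vary more than the median gene, and recovery for them was not measured separately. Each library is a different animal, per the labels. The members, and the lists and tests, were chosen with earlier results of these data known. All 10 members were examined in every comparison; other genes are named if past the threshold (up to 4 a direction by p) or most similar (2 per member), and Creb1 was chosen after its value was seen. Alternatives were DESeq2 1.42.0, RLE scaling, other filters, no cohort term, each cohort alone, 1 fit of all libraries, and leaving out each animal; the cohort difference and the relations with lists were added after the data were seen.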

Additional observations from a re-analysis of the deposited data

Results flagged for a closer look

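The values of 70 sets, each 1 gene in 1 group of 10 animals or fewer, were searched for an animal far from the others, and chance alone gives about 1 in 20 such sets. In 4 sets an animal stood apart. In control knockout animals at P66, animal 76 of cohort 2 was far above the rest for Fosb, at 29.5 CPM with the next at 17.9 CPM, and for Fosl2, at 150.4 CPM with the next at 117 CPM. In control wildtype animals at P66, animal 58 of cohort 2 was far below the rest for Atf3, at 0.875 CPM with the next at 2.05 CPM. In control knockout animals at P22, animal 43 of cohort 2 was far above the rest for Ier5, at 134 CPM with the next at 107 CPM. Groups of more than 10 animals were not searched.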

How the results depend on the processing

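Jun and Fosb by age kept their direction under every alternative tried and their call under all but 1, cohort 1 alone for Fosb. Of 408 values recomputed under other settings 375 were rated unchanged. For a member's change this meant the same direction and side of the threshold, and only changes picked for reporting entered. A count of called genes had to stay within a set factor of the main one, and a correlation had to keep its sign. In cohort 2 alone the P66 separation changes turned to −0.0135 for Fosl2, −0.0859 for Jun, −0.0135 for Atf3, −0.30 for Egr4, −0.13 for Nr4a2, −0.40 for Btg2 and −0.23 for Ier5, and the P66 interaction to −0.26 for Egr4 and −0.28 for Btg2. In cohort 1 alone P22 separation of Btg2 became −0.0361, P66 genotype of Nr4a2 0.0102, the age changes of Atf3 −0.0837, of Egr4 −0.11 and of Btg2 −0.0397, and age by separation of Btg2 0.41. In cohort 2 alone the age changes of Klf4 and Btg2 became −0.0858 and −0.00686, and age by separation of Fosb −0.0340. The cause of these turns was not tested, and fewer animals entered each cohort's fit. The P66 separation called 26 genes in all, against 9 without a count filter, 41 without the cohort term, 0 in cohort 1, 2 in cohort 2 and 98 by DESeq2. The P66 genotype called 4, against 0 in cohort 1, 96 in cohort 2 and 16 by DESeq2. Age called 3707 genes and 2 members, against 2176 genes and 1 member in cohort 1; age by separation called 3, against 0 in either cohort, and age by genotype 0, against 5 in cohort 2. Leaving out 1 animal gave 3 to 75 genes for P66 separation (0 to 1 members), 3 to 8 for P66 genotype, 3 to 6 for age by separation, and 3608 to 3843 genes and 2 to 3 members for age. The small P66 separation changes then ran from −0.00608 to 0.12 for Btg2, from −0.0184 to 0.0593 for Ier5 and from −0.00429 to 0.0790 for Jun, and the age changes from −0.0234 to 0.0567 for Atf3, from −0.0210 to 0.0370 for Btg2 and from −0.0318 to 0.0543 for Egr4. No paired analysis was possible because each animal gave 1 library. Some numbers recur between cohorts and rearing groups and were taken to stand for different animals. At 11 to 61 counts per library, Atf3 changes are limited by depth.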
